A study of Rattus norvegicus with 18 samples.

Results

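Transcripts that mark the epithelium of the bile ducts were followed in whole liver tissue of a rat model of non-alcoholic steatohepatitis (NASH). The 8 genes were Krt7, Krt19, Sox9, Epcam, Cd24, Prom1, Cftr and Spp1, taken by symbol from the 32623 genes of the deposited tables, and all 8 were found. Male Wistar rats of 3 groups of 6 were compared, with 1 library per rat. NASH rats inhaled carbon tetrachloride (CCl4, a hepatotoxin) with phenobarbital in their drinking water for 6 weeks and then ate a high-fat high-cholesterol diet for 4 weeks, 10 weeks in all by the study's methods. NASH-CH rats, the cirrhotic stage of the model, received CCl4 and phenobarbital for 8 weeks and then the same agents together with the diet for 16 weeks, 24 weeks in all. The series' own design text gives the same totals of 10 and 24 weeks but does not split them between the agents. Controls had standard chow and untreated water for 12 weeks, so neither diseased group had controls of its own duration, and stage, time and toxin exposure cannot be told apart.

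Cholangiocytes line the bile ducts, modify bile by secreting chloride and bicarbonate, and are held together by keratin filaments that hepatocytes lack. In chronic liver injury, strings of small duct-like cells appear at the edge of the portal tracts, a ductular reaction, and hepatocytes or progenitor cells may acquire biliary markers. The 8 genes belong to the cytoskeleton (Krt7, Krt19), to transcription control (Sox9), to the cell surface (Epcam, Cd24, Prom1), to fluid secretion (Cftr) and to the secreted matrix proteins (Spp1, osteopontin). Several of them are also made elsewhere. Examples are Spp1 in macrophages, Cd24 in B cells, and Krt19, Sox9 and Cftr in the ducts of the pancreas. These examples are not a full list, and the other markers may have such sources too.

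Upstream DNA is shown for the pair of markers whose difference between NASH-CH and NASH passed the test, with all rats (Spp1) or without 1 library (Cftr). Each window holds the 250 bases before the annotated start, written 5′ to 3′ on the strand of the gene, from RefSeq on build GRCr8, which is another build than the Rnor_6.0 used for the read counts. Capitals mark the letters of a motif of a biliary or injury-related factor.
Spp1, chr14:5619805-5620054, minus strand: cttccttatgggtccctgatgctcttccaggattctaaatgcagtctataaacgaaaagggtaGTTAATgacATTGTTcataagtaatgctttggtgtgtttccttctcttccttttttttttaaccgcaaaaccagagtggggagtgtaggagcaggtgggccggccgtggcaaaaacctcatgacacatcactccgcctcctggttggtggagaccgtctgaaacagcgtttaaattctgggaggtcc
Cftr, chr4:47527379-47527628, plus strand: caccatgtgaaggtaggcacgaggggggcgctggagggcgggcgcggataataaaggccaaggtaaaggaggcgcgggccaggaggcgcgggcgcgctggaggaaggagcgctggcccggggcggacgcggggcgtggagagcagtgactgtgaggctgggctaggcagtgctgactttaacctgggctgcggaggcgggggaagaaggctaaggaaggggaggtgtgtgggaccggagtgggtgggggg
The letters searched on both strands were GTTAAT (HNF1 core), AACAAT (SOX core), GGAATG (TEAD core), TGGGAA (RBPJ core) and TGACTCA (AP-1). In the Spp1 window, GTTAAT began 187 bases before the start and the reverse strand match to AACAAT began 178 bases before it. Windows of the same length held GTTAAT in 6.45% and AACAAT in 10.3% of 33469 promoters. The Cftr window held none of the 5 motifs. Of the other markers with a window, Epcam held TGACTCA 141 bases before its start, a motif of 4.05% of the promoters, and Cd24 and Prom1 held none. GGAATG and TGGGAA were in 12.1% and 22.1% of the promoters and in no window of these 5 genes. Windows for Krt7, Krt19 and Sox9 were not analysed here.

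Libraries held 19498534 to 27174015 counts in controls, 20827770 to 29491947 in NASH and 44680344 to 60117822 in NASH-CH rats, so depth moved with the cirrhotic group. Values below are CPM, read counts relative to the total of the library with TMM scaling between libraries, and they are not divided by transcript length, so levels are compared between rats and not between genes. Differences are log2 fold changes from limma-voom with Benjamini-Hochberg adjustment over all genes tested, with the standard error (SE) in parentheses. A gene was called at an adjusted p under 0.05. A filter on low counts left 12904 genes and 6 of the 8 markers. Krt7 and Sox9 did not pass it, and their differences come from the same fit over 20887 genes without that filter. Every marker had at least 1 count in every rat, with counts from 1 to 1803.

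The library of NASH-CH rat 5 stood apart from the other NASH-CH libraries. All 8 markers were higher in this rat than in any of the other 17, whereas 15% of the 12904 tested genes (1937) were highest in this library. Among 33 other genes of the biliary epithelium, 20 were highest there. The summed level of the 8 markers was 63.9 CPM in this rat and 7.93 to 19.6 CPM in the other 5 NASH-CH rats. It was 10.2 to 12.6 CPM in controls (median 11.5) and 7.75 to 13.8 CPM in NASH (median 8.52). The same library held transcripts of pancreatic digestive enzymes. Prss1, Cpa1, Cela2a, Pnlip and Ctrb1 were each at 8.92 to 16.3 CPM in it, at 1.36 to 1.56 CPM in control rat 3, and at no more than 0.761 CPM in any of the other 16 libraries. Their sum was 57.1 CPM in NASH-CH rat 5 and 7.32 CPM in control rat 3, against 0.0218 to 1.32 CPM in the other NASH-CH rats, up to 0.124 CPM in the other controls and up to 0.0857 CPM in NASH rats. Cela1, a further gene of that list which every liver contained, was set aside after its values were seen. In control rat 3 only Cd24, at 1.36 CPM, was the highest of the 6 controls. Of 10 hepatocyte genes, 5 were at their lowest of 18 rats in NASH-CH rat 5 (Alb, Apoa2, Fgb, Hnf4a and Ttr), with albumin mRNA at 41374 CPM against 59095 to 91945 CPM in the other NASH-CH rats. Of 8 genes of scar-associated macrophages, 6 were highest there. Of 6 mesothelial genes, 2 (Msln and Wt1) were highest there, with Msln at 13.4 CPM against 0.459 to 1.84 CPM in the other NASH-CH rats, while Upk3b, Upk1b and Lrrn4 were not above the highest of those rats. The part of these other tissues and cell types in the level of the biliary markers was not tested, and the markers' log2 differences below are given with and without this library. In bulk tissue, fewer cells of a type and less RNA per cell cannot be told apart.

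**Figure D1:**
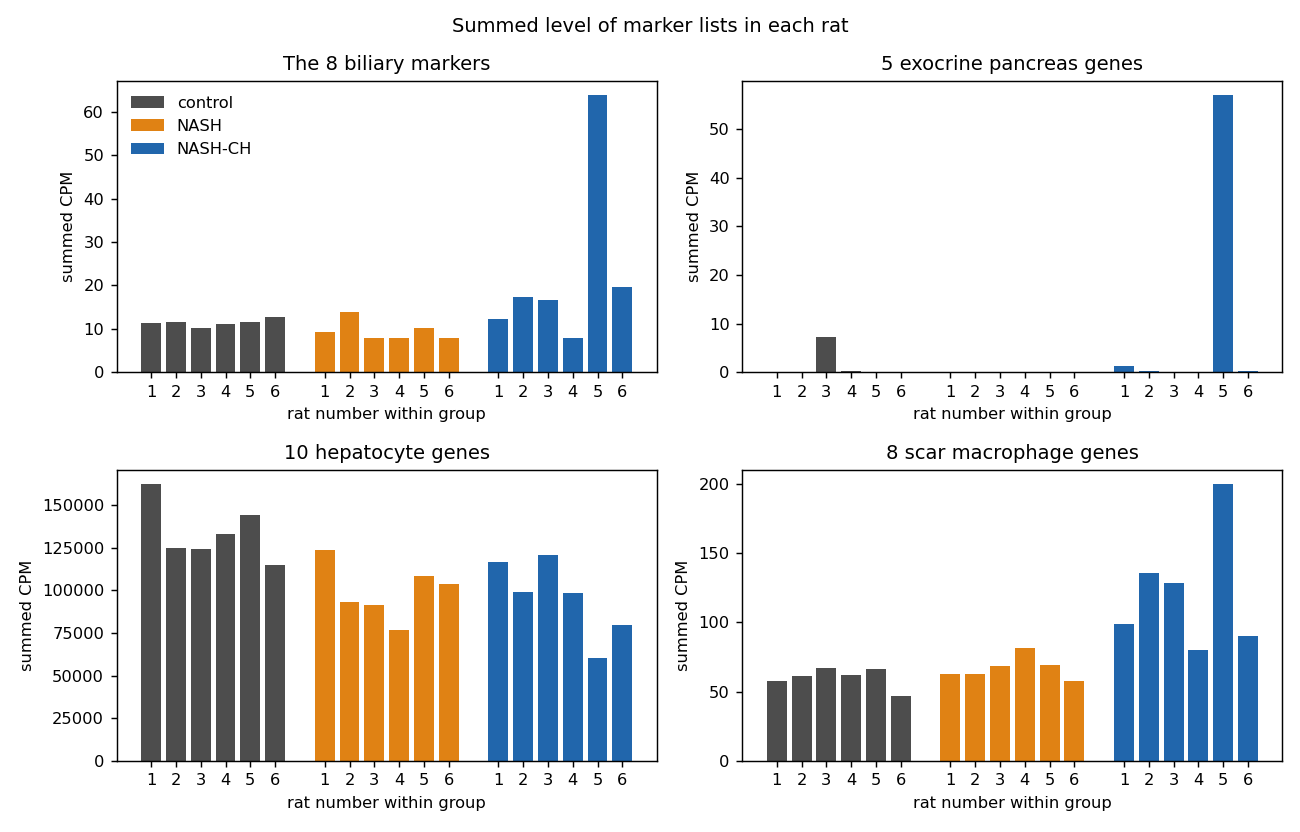
Summed CPM of 4 marker lists (y axis, linear) in each rat, numbered within its group on the x axis. The bar of NASH-CH rat 5 reaches 63.9 CPM for the 8 biliary markers and 57.1 CPM for 5 exocrine pancreas genes, and its hepatocyte bar is the lowest of the 18.

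At the other end of the NASH-CH group, rat 4 had the lowest level of 6 of the 8 markers within its group, and rat 1 that of Epcam and Prom1. Marker levels in rats 5 and 4 of this group differed by 3.58-fold (Spp1) to 19.2-fold (Krt7). The summed level in rat 4, 7.93 CPM, was below that of every control, while rats 2, 3 and 6 (16.7 to 19.6 CPM) were above every control and every NASH rat. The sum is weighted to the markers with the highest CPM, and in rat 6 Epcam was at 10.2 CPM and Spp1 at 4.36 CPM. In that rat Epcam, Spp1 and Sox9 were above every control. Krt19 (1.25 CPM) was below every control (lowest 1.54 CPM), and the other markers lay within the control range. For all 8 markers, the range within the NASH-CH group was wider than the difference between its median and that of the controls.

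**Figure D2:**
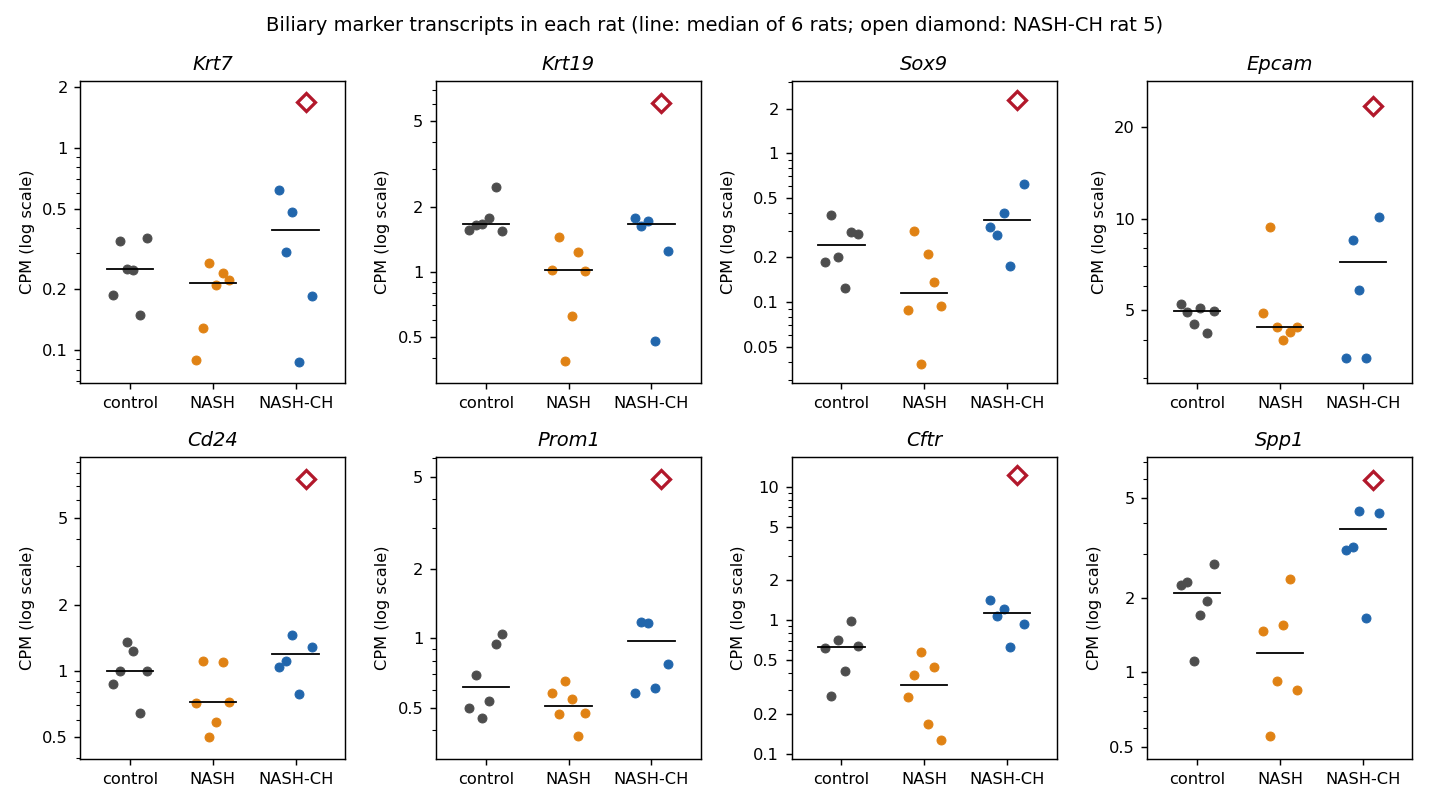
CPM of each marker in each rat (y axis, log scale) by group (x axis), with the median of 6 rats as a line and NASH-CH rat 5 as an open red diamond. The diamond is the highest point of all 8 panels, and the 6 NASH points of Krt19 lie below the 6 control points.

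In NASH against control, which asks whether the early stage already altered the biliary markers, none of the 6 tested markers was called, where 3.12% of all tested genes were (5.57% without NASH-CH rat 5, again with no marker). At an unadjusted p under 0.05 the limma-voom count was 0 with all rats and 2 without NASH-CH rat 5 (Krt19 and Cftr), and edgeR and DESeq2 called 0 with all rats. Over all genes edgeR called 652 of 12904 and DESeq2 1228 of 12879. The fitted difference was below 0 for 5 of the 6, with a median of -0.58 against 0.0072 over all tested genes. This median covers only the markers that passed the filter.

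Krt19, the filament protein by which ducts are usually stained, gave the clearest separation. Its level was 1.54 to 2.48 CPM in controls (median 1.66) and 0.386 to 1.46 CPM in NASH (median 1.02). All 6 NASH rats were below every control, a pattern found in 1.39% of tested genes in this direction. The log2 difference was -0.98 (SE 0.59, adjusted p = 0.357 in limma-voom), and without NASH-CH rat 5, which enters the shared estimate of the spread, it was -0.97 (SE 0.36, adjusted p = 0.113). The difference did not pass the test in either fit.

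Cftr, the apical chloride channel that drives ductal secretion, was at 0.27 to 0.992 CPM in controls (median 0.634) and at 0.126 to 0.579 CPM in NASH (median 0.327). The groups overlapped, and the log2 difference was -0.90 (SE 1.13, adjusted p = 0.689), and -0.90 (SE 0.41, adjusted p = 0.192) without NASH-CH rat 5. Spp1 was at 1.11 to 2.73 CPM in controls (median 2.09) and 0.557 to 2.36 CPM in NASH (median 1.20). Its log2 difference was -0.75 (SE 0.43, adjusted p = 0.327), and -0.74 (adjusted p = 0.235) without that rat. For Cftr the 95% interval was -3.27 to 1.47 with all rats and -1.77 to -0.028 without NASH-CH rat 5, before adjustment for the number of genes.

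The surface markers overlapped widely between these groups. Epcam, an epithelial adhesion molecule, was at 4.21 to 5.24 CPM in controls and 3.98 to 4.90 CPM in 5 NASH rats, with NASH rat 2 at 9.38 CPM. Its log2 difference was 0.031 (95% interval -0.89 to 0.96), and 0.038 (-0.57 to 0.64) without NASH-CH rat 5. Cd24, a small glycosylated surface protein, was at 0.645 to 1.36 CPM in controls and 0.501 to 1.11 CPM in NASH. Prom1, which encodes the progenitor antigen CD133, was at 0.454 to 1.04 CPM and 0.377 to 0.656 CPM respectively. The log2 differences of Cd24 and Prom1 were -0.40 (adjusted p = 0.774) and -0.42 (adjusted p = 0.762), and -0.39 (adjusted p = 0.365) and -0.41 (adjusted p = 0.417) without that rat.

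Krt7 and Sox9 were near the limit of these libraries. Krt7, the partner of Krt19 in duct filaments, had 3 to 10 counts per control and 2 to 7 per NASH library. Sox9, a transcription factor of duct development, had 3 to 10 and 1 to 7 counts. The single Sox9 count of NASH rat 3 has an exact Poisson 95% interval of 0.0253 to 5.57 counts, which covers counting error only. Their log2 differences, -0.43 (SE 0.70) for Krt7 and -0.86 (SE 0.73) for Sox9, were not called, nor were they without NASH-CH rat 5, at -0.42 (SE 0.48) and -0.85 (SE 0.44). Without a filter, 1.28%, 26.3% and 12.7% of the 20887 genes were called with all rats in NASH against control, NASH-CH against control and NASH-CH against NASH, and neither of these markers was called in any of the 3. In that order, 0.665%, 7.32% and 2.5% were called higher, and 0.618%, 19% and 10.2% lower.

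In NASH-CH against control, again none of the 6 tested markers was called, where 17% of all tested genes were (16.9% without NASH-CH rat 5, again with no marker). At an unadjusted p under 0.05 there was 1, Spp1, with all rats and 2, Spp1 and Cftr, without rat 5, and with all rats edgeR called 2 (Spp1 and Cftr) and DESeq2 called 1 (Spp1). Over all genes edgeR called 2449 of 12904 and DESeq2 2841 of 12879. The fitted difference was above 0 for 5 of the 6. The median over these 6 was 0.76 with all rats and 0.25 without NASH-CH rat 5, against 0.013 and 0.0086 over all tested genes.

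Spp1 was at 1.66 to 5.93 CPM in NASH-CH rats (median 3.77), and 5 of the 6 were above the highest control. The log2 difference from control was 0.87 (SE 0.33, 95% interval 0.18 to 1.56, adjusted p = 0.0781 in limma-voom) and 0.70 (adjusted p = 0.125) without rat 5. It passed the threshold without rat 4, with an adjusted p of 0.0127. Cftr was at 0.633 to 1.42 CPM in 5 NASH-CH rats and at 12.1 CPM in rat 5. Its log2 difference was 1.60 (SE 0.82, adjusted p = 0.188), and without rat 5 it was 0.85 (SE 0.32, adjusted p = 0.0764). Removing that library lowered the difference and its error together.

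Krt19 showed no shift of the group median. It was at 0.48 to 1.78 CPM in 5 NASH-CH rats and 6.08 CPM in rat 5, and the medians were 1.68 CPM in NASH-CH and 1.66 CPM in controls. The log2 difference was -0.0035 (SE 0.47, 95% interval -0.98 to 0.98), an interval that reaches nearly 1 log2 unit in either direction. Without rat 5 it was -0.47 (SE 0.31, adjusted p = 0.318).

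The remaining markers had a higher fitted value with all rats that shrank without rat 5. Because rat 5 held the highest value of each marker, leaving it out was bound to lower these differences. The drop is thus no separate result. Sox9 was at 0.175 to 0.626 CPM in 5 NASH-CH rats and 2.27 CPM in rat 5, and its log2 difference of 1.01 (adjusted p = 0.228) became 0.44 (adjusted p = 0.443). Krt7 was at 0.0873 to 0.62 CPM and 1.68 CPM, and its difference of 0.62 became 0.081. Cd24 was at 0.786 to 1.46 CPM and 7.52 CPM, with a difference of 0.72 that became 0.15. For these 3 genes the difference without rat 5 was small against its 95% interval, which for Cd24 ran from -0.32 to 0.62. Prom1 was at 0.58 to 1.18 CPM and 4.88 CPM, and its difference of 0.80 became 0.26. Epcam was at 3.48 to 10.2 CPM and 23.4 CPM, and its difference of 0.61 became 0.25. Epcam lay above every control in 4 of the 6 NASH-CH rats and below every control in the other 2, rats 1 and 4.

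**Figure D3:**
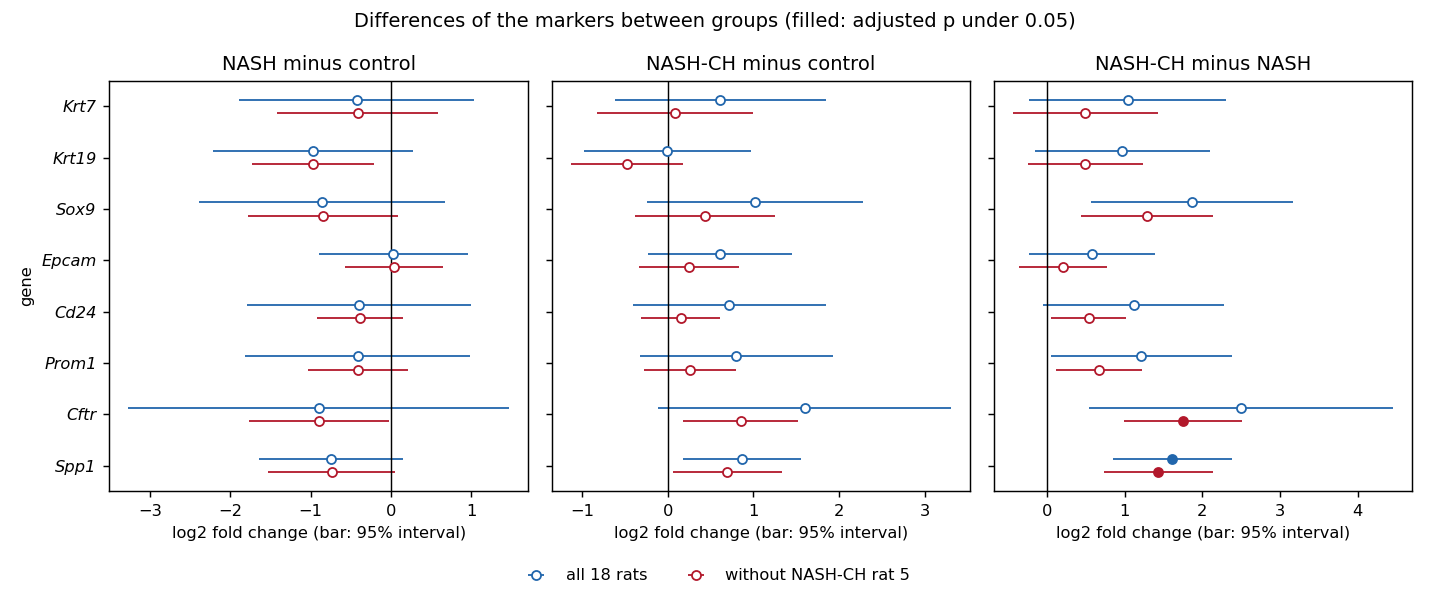
Log2 fold change of each marker (x axis) with its 95% interval in the 3 comparisons, with all 18 rats (blue) and without NASH-CH rat 5 (red). Filled points are called, and they are Spp1 in NASH-CH minus NASH in both fits and Cftr there in the fit without rat 5. Krt7 and Sox9 come from the fit without a filter on low counts.

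NASH-CH against NASH asks which markers differ between the 2 stages of the model. This comparison shares the NASH-CH rats with the one above and the NASH rats with the first, so it is not independent of them. Spp1 was the only called marker of the 6, all in the higher direction, where 1.81% of tested genes were called higher and 4.2% in either direction. Spp1 was 3.06-fold higher in NASH-CH than in NASH, a log2 difference of 1.61 (SE 0.37, 95% interval 0.85 to 2.38, adjusted p = 0.0153). Of the 6 NASH-CH rats, 5 were above every NASH rat, and rat 4 (1.66 CPM) was below NASH rat 5 (2.36 CPM). Without NASH-CH rat 5 the difference was 1.44 (SE 0.33, adjusted p = 0.0187). It did not pass without NASH rat 6 (adjusted p = 0.0508) or when these groups were fitted alone (adjusted p = 0.0547).

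Cftr was higher in every NASH-CH rat (lowest 0.633 CPM) than in every NASH rat (highest 0.579 CPM), a pattern of 1.36% of tested genes in this direction. With all rats its log2 difference of 2.50 had an SE of 0.93 and was not called (adjusted p = 0.157). Without rat 5 the difference was 1.75 (SE 0.36, adjusted p = 0.00802), a 3.36-fold higher level. Spp1 and Cftr were then the called markers, 2 of 6, where 1.61% of tested genes were called higher and 3.91% in either direction. In the main fit the Cftr call thus depended on the library that held pancreatic transcripts, while some other settings called it with all rats. Leaving out that library could not undo the separation of the groups, because it held the highest Cftr value. The nearest rats across the groups were NASH-CH rat 4 (29 counts) and NASH rat 3 (15 counts). Their exact Poisson intervals, which cover counting error only, overlapped (0.424 to 0.909 and 0.324 to 0.954 CPM).

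Sox9 was not called, with a log2 difference of 1.87 (SE 0.62, adjusted p = 0.0538) with all rats and 1.29 (SE 0.40, adjusted p = 0.0512) without rat 5. Both come from the fit without a filter, where 12.7% of genes were called with all rats and 8.86% without rat 5. Its adjusted p is therefore not comparable with those of the 6 markers in the filtered fit, and NASH libraries held only 1 to 7 Sox9 counts. The differences of Prom1 (1.22, adjusted p = 0.257), Cd24 (1.12, adjusted p = 0.310), Krt7 (1.04, adjusted p = 0.289), Krt19 (0.97, adjusted p = 0.367) and Epcam (0.58, adjusted p = 0.468) were not called. Without rat 5 they were 0.67, 0.54, 0.50, 0.50 and 0.21. The median over the 6 tested markers was 1.17 with all rats and 0.60 without rat 5, against 0.0068 and -0.00056 over all tested genes.

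Of 34 further genes of the biliary epithelium, 33 were found and 25 were tested. In NASH-CH against control 4 rose and none fell, with a median difference of 0.40, where 8.38% of tested genes were called higher. Bicc1, an RNA-binding protein of the cystic kidney disease pathway, was at 1.59 to 2.54 CPM in controls and 2.76 to 17.5 CPM in NASH-CH, with no overlap, as for 3.64% of tested genes in this direction. It rose by 1.61 on the log2 scale (SE 0.48, adjusted p = 0.0290) and by 1.24 (adjusted p = 0.0112) without rat 5. Dmbt1, a scavenger receptor protein of mucosal surfaces, was at 5.42 to 10.4 CPM in controls, 3.98 to 8.72 CPM in NASH and 11.6 to 47.8 CPM in NASH-CH. All 6 NASH-CH rats were above every other rat for Dmbt1. Of tested genes, 3.64% lay wholly above control in NASH-CH and 1.36% wholly above NASH. Of the 33 genes found, 3 and 2 did. Dmbt1 rose by 1.02 (SE 0.31, adjusted p = 0.0303) from control and by 1.26 (adjusted p = 0.0246) from NASH, where it was the only called gene of the list. Without rat 5 these were 0.70 (adjusted p = 0.00858) and 0.93 (adjusted p = 0.00225).

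Anxa4, a calcium-dependent membrane-binding protein of secretory epithelia, rose by 0.51 in NASH-CH (SE 0.13, adjusted p = 0.0133), and by 0.39 (adjusted p = 0.0102) without rat 5. Pkd1, which encodes polycystin-1 of the primary cilium, was at 10.3 to 16.8 CPM in controls, 16.5 to 23.9 CPM in NASH and 16.6 to 27.7 CPM in NASH-CH. It rose by 0.64 in NASH-CH (SE 0.14, adjusted p = 0.00526), and by 0.62 (adjusted p = 0.00866) without rat 5. It was also the 1 gene of the 25 called in NASH, where 3.12% of all tested genes were, by 0.60 (adjusted p = 0.0295), or 0.61 (adjusted p = 0.0220) without rat 5, and this call was lost in 6 of 18 fits with 1 rat left out. Rat 5 did not lead for Pkd1. Without that rat, Cd44, a hyaluronan receptor, joined the called genes of NASH-CH against control with a difference of 0.56 (adjusted p = 0.0483). That made 5 of 25, where 8.26% of all tested genes were called higher. The list's median was then 0.31, against 0.0086 over all tested genes. Against NASH the call count without rat 5 was 3 of 25, where 1.61% of tested genes were called higher, with Cldn4, a tight junction protein, at 1.42 (adjusted p = 0.0183), Cd44 at 0.93 (adjusted p = 0.00772) and Dmbt1. Mmp7, a matrix-degrading enzyme of duct cells that did not pass the filter and was picked out after its values were seen, had 0 counts in all 6 controls, 0 to 3 in NASH and 2 to 34 in NASH-CH.

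**Figure D4:**
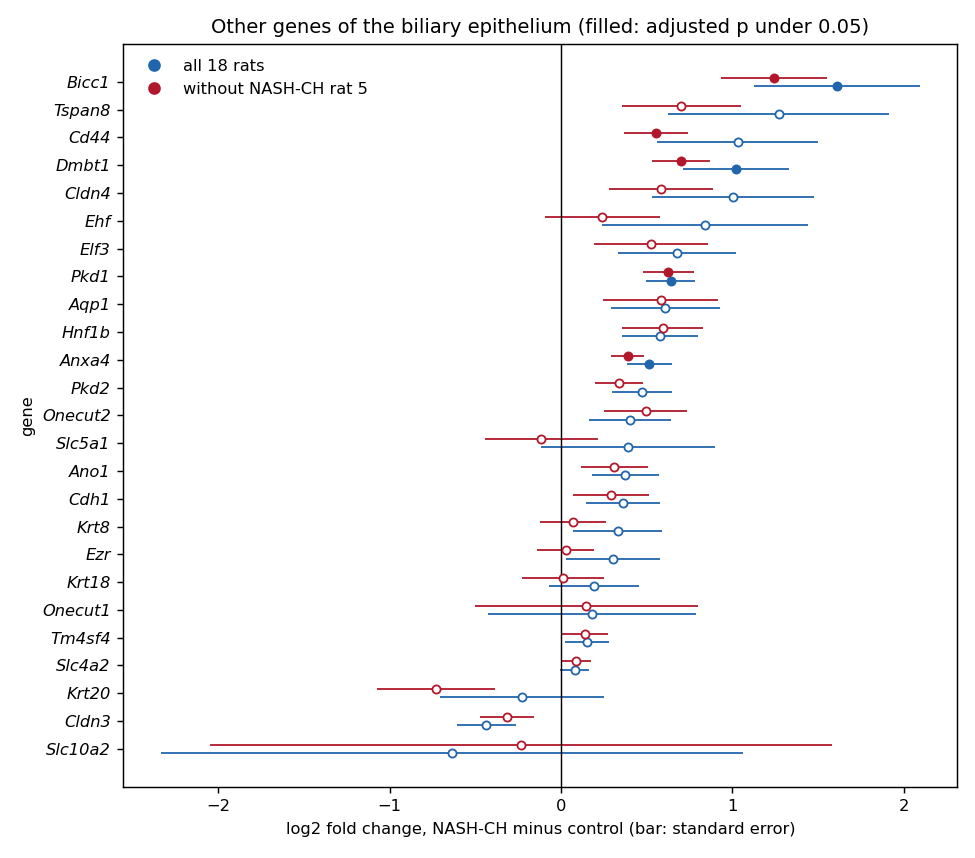
Log2 fold change of NASH-CH minus control (x axis) with its standard error for the 25 tested genes of the biliary epithelium (y axis), with all 18 rats (blue) and without NASH-CH rat 5 (red). Filled points are called, namely Bicc1, Dmbt1, Pkd1 and Anxa4 in both fits and Cd44 without rat 5.

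Signals that drive ductular growth formed a list of 26 genes, of which 22 were tested. In NASH none was called (7 had an unadjusted p under 0.05 in limma-voom, edgeR called 0, and DESeq2 called 2 beside 1228 of all 12879 genes). In NASH-CH against control 2 of 22 rose and none fell, a share near the 8.38% of all tested genes called higher. Tnfsf12, which encodes the cytokine TWEAK that stimulates ductular cells, was at 2.03 to 3.49 CPM in controls and 3.39 to 5.25 CPM in NASH-CH. It rose by 0.77 (SE 0.17, adjusted p = 0.00455), and by 0.70 (adjusted p = 0.00751) without rat 5. Ctgf, a matrix protein and target of the YAP pathway, was at 2.37 to 6.36 CPM in controls and 6.62 to 30.9 CPM in NASH-CH. The groups did not overlap for Ctgf, as for 2 of the 26 listed genes and 3.64% of tested genes in this direction. Ctgf rose by 1.78 (SE 0.44, adjusted p = 0.0106), and by 1.60 (adjusted p = 0.0177) without rat 5. Against NASH none was called with all rats (8 had an unadjusted p under 0.05, edgeR called 0, and DESeq2 called 4 beside 949 of all 12879 genes). Without rat 5 there was 1 of 22, Fgfr2, a fibroblast growth factor receptor, at 0.64 (adjusted p = 0.0486), where 1.61% of tested genes were called higher. With all rats, median Fgfr2 was 35.9 CPM in controls, 26.1 CPM in NASH and 39.2 CPM in NASH-CH, so NASH was the lowest group.

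Markers of other cells moved in the same livers. Gpnmb and Trem2, genes of macrophages in scar tissue, which also make Spp1, rose in NASH-CH against control by 3.11 (adjusted p = 5.32e-07) and 4.78 (adjusted p = 6.53e-06), and by 2.97 (adjusted p = 9.59e-07) and 4.57 (adjusted p = 4.01e-06) without rat 5, with Trem2 at 0 to 0.0496 CPM in controls. Gpnmb also rose in NASH by 1.57 (adjusted p = 0.00667), or 1.58 (adjusted p = 0.00300) without rat 5, where Spp1 was not called. Gpnmb was at 2.62 to 9.19 CPM in controls, 14.0 to 24.7 CPM in NASH and 35.1 to 96.6 CPM in NASH-CH. Beside 8.38% of all tested genes called higher and 8.6% called lower, 3 of the 8 scar macrophage genes rose and 1 fell in NASH-CH, with and without rat 5. Their summed level was 46.7 to 67.1 CPM in controls and 79.9 to 200.3 CPM in NASH-CH. That sum is weighted to Gpnmb, with means of 6.90 CPM in controls and 60.6 CPM in NASH-CH. The means of Cd63 (15.7 and 20.6 CPM), Cd68 (11.6 and 12.7 CPM) and Lgals3 (8.74 and 16.3 CPM) differed less. That of Fabp5 was lower in NASH-CH (14.7 and 5.89 CPM). Of 7 genes of stellate cells and myofibroblasts, 3 rose (Col1a1, Des and Tagln) and 1 fell (Lrat), again in both fits. Of 6 B cell genes 2 were tested and 1 fell. In rat 5, 0 of the 6 were highest of the 18 rats. Ms4a1 (0.299 against at most 0.240 CPM) and Cd79a (0.143 against at most 0.120 CPM) were highest of the NASH-CH rats there, and the others were not. The summed level of the B cell genes was 4.61 CPM in rat 5, of which Cd22 was 3.78 CPM, and 3.27 to 5.02 CPM over the NASH-CH rats. Of the 6 mesothelial genes 2 were tested and 0 were called in limma-voom. The part of macrophages in the Spp1 difference and that of B cells in the Cd24 level were not tested.

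Within groups, 11 pairs of genes were correlated over 6 rats in each of 3 groups, 33 relations in all. With log2 CPM, 2 passed an adjusted p of 0.05, both in NASH-CH rats. Krt19 followed Krt7 (Pearson r = 0.96, exact permutation p = 0.00139, adjusted p = 0.0229), with Spearman rho = 1 (exact permutation p = 0.00278, adjusted p = 0.0458). Krt19 also followed Cftr (r = 0.92, exact permutation p = 0.00139, adjusted p = 0.0229, rho = 1 with the same p as above). Leaving out the 2 rats farthest from the median Krt19 level gave r = 0.93 and 0.87 over 4 rats. Krt19 and Cd24 had r = 0.92 in NASH rats (exact permutation p = 0.00833, adjusted p = 0.0917), which did not pass. In NASH-CH rats, Krt19 with Sox9 gave r = 0.87, and -0.86 without the 2 farthest rats, so that relation rested on those rats. The order of the 6 cirrhotic livers was thus the same for Krt19, Krt7 and Cftr and not for the other markers.

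Genes whose pattern was most like each tested marker were ranked by the correlation of deviations from the group means over 18 rats, as a description in which all values share libraries. For Krt19 these were Ddah2, Vopp1 and Ocln, the last a tight junction protein (r = 0.86, 0.85 and 0.85, and 0.82, 0.69 and 0.74 over 17 rats without rat 5). For Epcam they included Cd99 and Kifc3 (0.90 and 0.89, and 0.82 and 0.79 without rat 5). For Spp1 they were Tjp1, a tight junction scaffold, Nkiras2 and Greb1l (0.81, 0.80 and 0.79, and 0.78, 0.81 and 0.77 without rat 5). Cd24 was most like Tax1bp3, Clec10a and Tagln2 (0.93, 0.88 and 0.87, and 0.72, 0.54 and 0.49 without rat 5). Prom1 was most like Dcdc2, a ciliary protein, Tmem106a and Lpl (0.90, 0.88 and 0.88, and 0.59, 0.56 and 0.63). Cftr was most like Ifi30, Cd9 and Vim (0.92, 0.87 and 0.87, and 0.74, 0.51 and 0.57).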

How the data were processed

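Bulk RNA sequencing of whole liver was performed on 18 rats, 6 per group, with groups taken from the labels. According to the study's methods, the authors trimmed adapters (Trim Galore is among the tools in the submitters' processing notes), aligned reads to Rnor_6.0 with STAR and quantified Ensembl release 95 genes with RSEM, and deposited 1 table of expected counts per rat. Tool versions are not given in the sources used here. The labels and the methods name different RNA extraction kits.

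Expected counts were rounded, which changed 5 of 144 marker values, and normalized with TMM in edgeR 4.0.16. CPM used the TMM-scaled library size. The main test was limma-voom (limma 3.58.1, R 4.3.3), as in the methods, over the genes kept by filterByExpr. It used 1 fit of 18 rats and a Benjamini-Hochberg adjusted p under 0.05. The methods state no filter on low counts. The study reported fewer called genes than this fit, most clearly in NASH-CH against control, so the call shares here are not those of the study. Correlations used log2 CPM with a prior count of 2 and exact permutation over pairings. Alternatives included edgeR's quasi-likelihood test, DESeq2 1.42.0, other scaling and filters, thinning to the lowest library total, quality weights and leaving out each rat. The scripts were tested on simulated data. No pair of libraries of a group agreed within sampling noise, and replicate numbers did not pair rats across groups.

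The markers and gene lists were chosen with earlier results of these data known. Named genes are the 8 markers, every gene of the biliary and signal lists called in either diseased group against control, the 3 genes most like each tested marker, and markers of other cells beside results they move with. Some genes that the lists or this rule would include are not reported here.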

Additional observations from a re-analysis of the deposited data

Results flagged for a closer look

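In 24 sets of 6 rats (8 markers in 3 groups), the gap between an extreme rat and its nearest neighbour was compared with the range of the group by Dixon's criterion. It passed in 9 sets. The nominal rate of about 1 in 20, or 1.2 of 24, holds for independent sets of normally distributed values. These sets share libraries and hold CPM without logarithms, so that rate does not apply to them and chance was not tested. In 7 of the 9 the extreme rat was NASH-CH rat 5, with 1.68 CPM of Krt7, 6.08 CPM of Krt19, 2.27 CPM of Sox9, 23.4 CPM of Epcam, 7.52 CPM of Cd24, 4.88 CPM of Prom1 and 12.1 CPM of Cftr. Spp1 was not among them. The other 2 were Krt19 in control rat 5, at 2.48 CPM, and Epcam in NASH rat 2, at 9.38 CPM. The part of the exocrine pancreas transcripts of that library in these 7 values was not tested.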

How the results depend on the processing

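Of 666 differences of single markers under alternative settings, 636 kept their direction and side of the threshold, 2 lost a call, 16 gained one and 12 turned sign. Sign turns concerned 2 differences near 0: Epcam in NASH against control was -0.011 with thinned counts and -0.14 to 0.095 with 1 rat left out, -0.0054 without control 5, and Krt19 in NASH-CH against control was 0.29 with edgeR, 0.28 with DESeq2, 0.19 with library size as the only scaling and 0.12 with a replicate block, and -0.47 to 0.31 with 1 rat left out (0.081 without control 5, 0.0058, 0.0041, 0.31 and 0.095 without NASH-CH 2, 3, 4 and 6). The cause was not tested. Counts of called markers in NASH-CH against control (0) were 2 with edgeR, 1 with DESeq2, library size only and the replicate block, and 0 to 1 with 1 rat left out (1 without NASH-CH 4). In NASH-CH against NASH (1) they were 2 with edgeR, DESeq2 (which gave 4 of the 6 an adjusted p), quality weights, the replicate block and without control 3 and NASH-CH 5, chosen after seeing the data. They were 0 with the 2 groups fitted alone and at an adjusted p under 0.01, and 0 to 2 with 1 rat left out (0 without NASH 6, 2 without NASH-CH 5). Cftr passed in NASH-CH against NASH with edgeR, quality weights and the replicate block, and Prom1 with DESeq2 (adjusted p = 0.0169). Sox9 passed there with quality weights (adjusted p = 0.0458), the replicate block (adjusted p = 0.0386) and without NASH-CH 2 or 4 (adjusted p = 0.0487 and 0.0295). These Sox9 values come from fits without a filter on low counts.

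Counts of the biliary list in NASH (1) were 0 with the replicate block, without control 3 and NASH-CH 5, at 0.01 and at a log2 change of at least 1, and 0 to 1 with 1 rat left out. In NASH-CH against control (4) they were 7 with edgeR, DESeq2 and no filter, 8 with library size only, 2 with the 2 groups alone and at a log2 change of at least 1, 1 at 0.01, and 2 to 6 with 1 rat left out (2 without control 1, 6 without NASH-CH 4). Against NASH (1) they were 4 with edgeR and DESeq2, 6 with no filter, 3 with quality weights, the replicate block and without control 3 and NASH-CH 5, 2 with thinned counts, 0 with library size only, the 2 groups alone and at 0.01, and 0 to 4 with 1 rat left out. Signal genes in NASH (0) were 2 with DESeq2 and library size only, 1 with the 2 groups alone, 3 with quality weights, and 0 to 4 with 1 rat left out. In NASH-CH against control (2) they were 5 with library size only, 4 with no filter, 1 at 0.01 and at a log2 change of at least 1, and 2 to 3 with 1 rat left out. Against NASH (0) they were 4 with DESeq2, 2 with no filter, 1 with quality weights and without control 3 and NASH-CH 5, and 0 to 1 with 1 rat left out. The replicate numbers share only a number: same-numbered rats had mean correlations of 0.052 (NASH and control), 0.073 (NASH-CH and control) and 0.015 (NASH-CH and NASH), so a call gained or lost under the replicate block says nothing of pairing. Library size as the only scaling moved the median of all genes to 0.23, 0.27 and 0.040 in the 3 comparisons. For NASH and NASH-CH against control and NASH-CH against NASH, the main fit called 403, 2192 and 542 of 12904 genes. Of the same genes, edgeR called 652, 2449 and 617, and library size only 865, 3270 and 367. Quality weights called 1509, 2410 and 774 of them, and the replicate block 444, 2095 and 540. DESeq2 called 1228, 2841 and 949 of 12879, and the fit with no filter 268, 5495 and 2649 of 20887. The 2 groups fitted alone called 644 of 12387, 1408 of 12941 and 349 of 13060. Thinned counts called 452, 2058 and 507 of 12472, and leaving out control 3 and NASH-CH 5 called 356, 1603 and 477 of 12909. With 1 rat left out, 128 to 982, 1519 to 2409 and 346 to 591 of 12948 to 13039 genes were called. The part of these totals in the list counts was not tested. Krt7 and Sox9 had 1 to 10 counts per control or NASH library, and the part of depth in their missing calls was not tested.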
